A study of Mus musculus with 9 samples.

Results

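The matrix metalloproteinases (MMPs) and the tissue inhibitors of metalloproteinases (TIMPs) described here are 10 genes, Mmp2, Mmp7, Mmp9, Mmp10, Mmp13, Mmp14, Mmp15, Timp1, Timp2 and Timp3. They were taken by symbol from a table of 50600 mouse genes that holds 27 genes of both families, 23 Mmp and 4 Timp. The members were selected on a reading of their levels in these 9 libraries and of their differences between the groups, so levels, folds and calls of members are a description and carry no test.

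RNA was sequenced from 9 libraries in 3 groups of 3. Normal small intestinal organoids from WT C57BL/6 mice were kept for 24 hr in equal parts of conditioned medium (cM) and concentrated organoid medium with EGF, Noggin and R-spondin1, and the cM came from cultures of WT organoids (WT-cM) or of tumoroids (T-cM). Tumoroids were grown untreated from intestinal tumours of Apc1638N/+ mice, whose strain is labelled MIX, in medium that the methods describe without R-spondin. The methods also give an older age for the mice with tumours, and a tdTomato reporter in the tumoroid lines. The paper describes the tumoroids as the source of the T-cM. Each group came from 3 different mice, and genotype, strain, age, medium and tumour origin cannot be told apart between tumoroids and organoids.

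For the 6 organoid libraries the title and the treatment field name opposite media. The titles name the groups here (WT-cM-titled or T-cM-titled organoids), and every direction between them turns round if the treatment field is right. Reads counted on genes ranged from 16541635 to 25170966 per library. Epithelial marker genes summed to between 10262 and 12562 CPM (reads scaled to the normalised library size) in organoids and between 7387 and 8147 CPM in tumoroids. The low end of detection was set at 3 reads, and this limit covers counting error only.

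MMPs are zinc-dependent proteases that cut extracellular matrix and other proteins outside the cell. Most are secreted as inactive proenzymes whose prodomain must be removed, while the membrane-type enzymes such as MMP14 and MMP15 sit in the plasma membrane. TIMPs bind the active site and block it, and TIMP2 together with MMP14 also takes part in the activation of pro-MMP2 at the cell surface. In the mouse small intestine, Mmp7 (matrilysin) is known from Paneth cells, where it activates the antimicrobial alpha-defensins.

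The promoters of the secreted proteases and of the TIMPs differed in short motifs, and 4 are shown because they stand for both kinds. RefSeq (GRCm38.p6) gave the 250 bases before the gene start for 8 of the 10 members; no entry was given for Mmp2 and Mmp9. Capitals mark matches to the AP-1 motif TGANTCA and the TATA motif TATAAA, searched on both strands. The Timp1 window is in lower case throughout, since it held neither. The letters GGAATG (TEAD), GGGCGG (SP1) and CTTTGA (TCF/LEF) were searched too and are not marked. No searched motif overlapped another in these windows. The sequences run 5′ to 3′ on the plus strand, at chr9:7691840-7692089 for Mmp7, chr9:7502092-7502341 for Mmp10, chr9:7272264-7272513 for Mmp13 and chrX:20869916-20870165 for Timp1.
Mmp7: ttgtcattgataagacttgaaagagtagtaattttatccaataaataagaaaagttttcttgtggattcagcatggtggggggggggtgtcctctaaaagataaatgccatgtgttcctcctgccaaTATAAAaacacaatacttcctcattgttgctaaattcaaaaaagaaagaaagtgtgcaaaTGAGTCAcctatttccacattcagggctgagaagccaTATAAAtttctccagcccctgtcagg
Mmp10: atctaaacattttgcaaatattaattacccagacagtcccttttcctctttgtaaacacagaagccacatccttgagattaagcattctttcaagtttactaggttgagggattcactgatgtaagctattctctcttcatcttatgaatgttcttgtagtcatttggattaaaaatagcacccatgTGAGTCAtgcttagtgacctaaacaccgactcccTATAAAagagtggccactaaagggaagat
Mmp13: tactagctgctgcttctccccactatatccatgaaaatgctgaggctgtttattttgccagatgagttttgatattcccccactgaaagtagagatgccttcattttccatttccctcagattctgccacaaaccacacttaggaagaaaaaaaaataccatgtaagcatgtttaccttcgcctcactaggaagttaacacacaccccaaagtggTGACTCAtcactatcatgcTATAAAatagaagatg
Timp1: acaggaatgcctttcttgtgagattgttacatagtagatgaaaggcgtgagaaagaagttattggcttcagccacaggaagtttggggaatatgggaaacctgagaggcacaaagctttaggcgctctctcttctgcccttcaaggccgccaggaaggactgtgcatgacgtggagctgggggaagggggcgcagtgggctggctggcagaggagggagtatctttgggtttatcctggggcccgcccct

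AP-1 and TATA matches stood together in Mmp7, Mmp10 and Mmp13, and in none of the other 5 members with a promoter. Across 32851 RefSeq promoter windows of the same length, 6.75% held the AP-1 letters, 12.4% the TATA letters and 1.21% both. The AP-1 match began 63 bases before the start in Mmp7 and in Mmp10, and 35 bases before it in Mmp13. SP1 letters were found in Mmp14, Mmp15, Timp1, Timp2 and Timp3, against 32.7% of all windows. TEAD letters were found in Timp1 alone (12.6% of windows), and TCF/LEF letters, CTTTGA, in no member (13.8%). These matches describe letters in a window and are neither sites nor causes.

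The levels fell into 3 kinds. Mmp7, Mmp14, Mmp15 and Timp3 had more than 3 reads in every organoid library. Timp1 and Timp2 were near or at the limit of detection in organoids and clearly present in all tumoroids. Mmp13 and Mmp10 had reads in tumoroids alone, and Mmp2 and Mmp9 were at or near 0 nearly everywhere. Of the 10 members, 8 passed the filter on low values, a TPM (reads per gene length, scaled to an equal total in each library) of at least 1 in any library; Mmp2 and Mmp9 did not, and Mmp10, Mmp13, Timp1 and Timp2 passed through tumoroids alone.

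**Figure D1:**
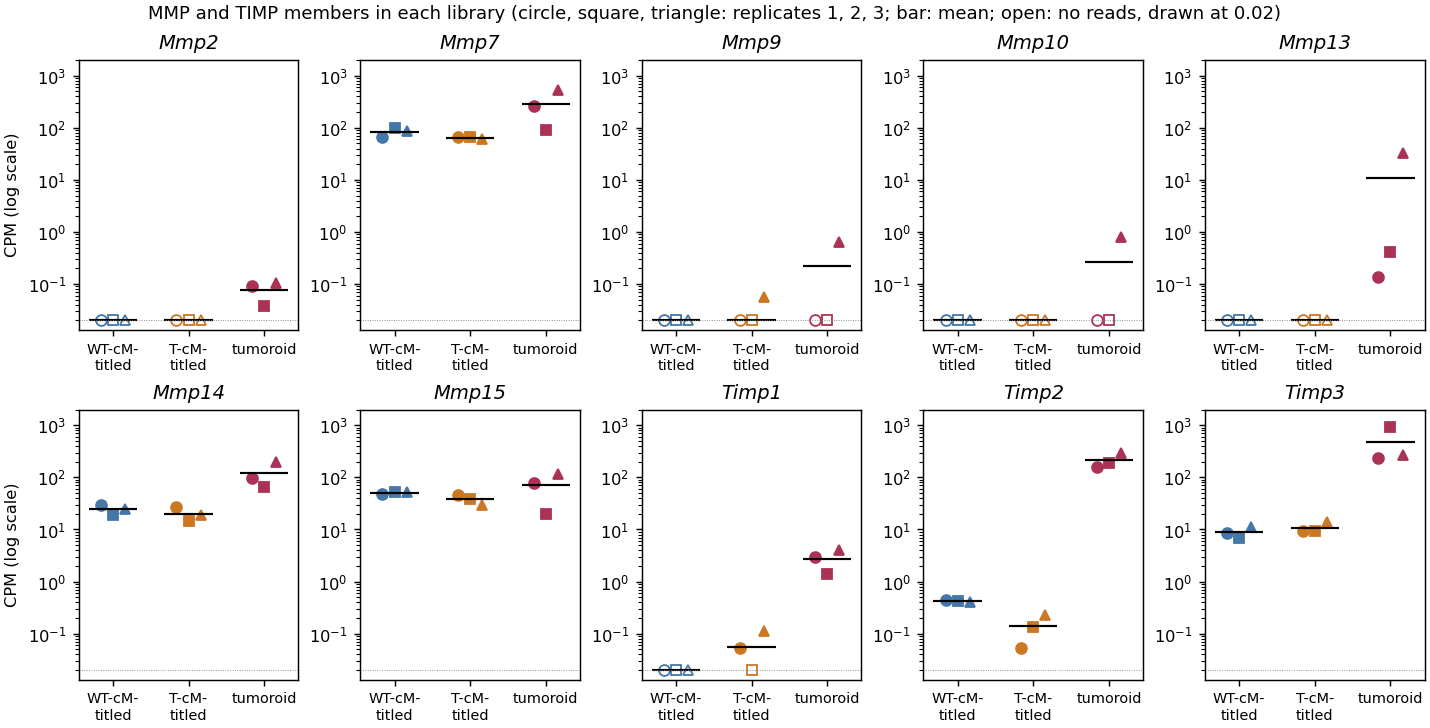
Level of each of the 10 members in each library, in CPM on a log axis, with the 3 groups along the horizontal axis. Points are libraries, bars are group means and open points had no reads. Timp2 and Timp3 lay far above both organoid groups in every tumoroid, while Mmp13 reached 32.3 CPM in tumoroid 3 and 0.409 CPM or less elsewhere.

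Mmp7 was the most abundant member in every group on the TPM scale. Its level was 67.9, 98.6 and 86.3 CPM in WT-cM-titled organoids, replicates 1 to 3. In T-cM-titled organoids it was 66.7, 66.5 and 62.0 CPM. In tumoroids it was 264, 91.1 and 523 CPM. Tumoroids 1 and 3 lay above all organoids, but tumoroid 2 lay within the range of the WT-cM-titled libraries. The log2 fold change of tumoroids was 1.80 ± 0.49 (SE, n = 3 per group) against WT-cM-titled and 2.17 ± 0.49 against T-cM-titled organoids. Without tumoroid 3 these were 1.06 and 1.43. Per length, Mmp7 had 151 ± 11.4 TPM (SD, n = 3) in T-cM-titled organoids, 191 ± 27.7 TPM in WT-cM-titled organoids and 961 ± 729 TPM in tumoroids. In bulk RNA, more cells that carry a transcript and more RNA per cell cannot be told apart.

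Mmp13, collagenase-3, which cuts fibrillar collagens, had no read in any of the 6 organoid libraries. The tumoroids held 3, 11 and 941 reads, or 0.136, 0.409 and 32.3 CPM. Tumoroid 3 thus held nearly all of the reads, and its level was at least 202-fold higher than the floor of 3 reads per library in WT-cM-titled organoids. Mmp10, stromelysin-2, had 23 reads in tumoroid 3 (0.790 CPM) and none in the other 8 libraries. The gelatinases Mmp2 and Mmp9, which cut denatured collagen and basement membrane collagen, had few or no reads. Mmp2 had 2, 1 and 3 reads in tumoroids and none in organoids, and Mmp9 had 19 reads in tumoroid 3, 1 in a T-cM-titled library and none elsewhere.

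Mmp7, Mmp10 and Mmp13 lie in a run of 10 Mmp genes over 427072 bases of chromosome 9 (mm10, 7272514 to 7699585). In this run 7 genes had no read in any organoid library, and Mmp12 had 8 reads in a single T-cM-titled library. In tumoroid 3, 5 genes of the run passed 3 reads, and 3 genes had no read in any of the 9 libraries. Mmp3, stromelysin-1, had 4 reads in tumoroid 3 and none elsewhere. Most reads of the run in tumoroid 3 thus fell on Mmp7 and Mmp13, with few on Mmp20, Mmp10, Mmp3 and Mmp12.

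**Figure D2:**
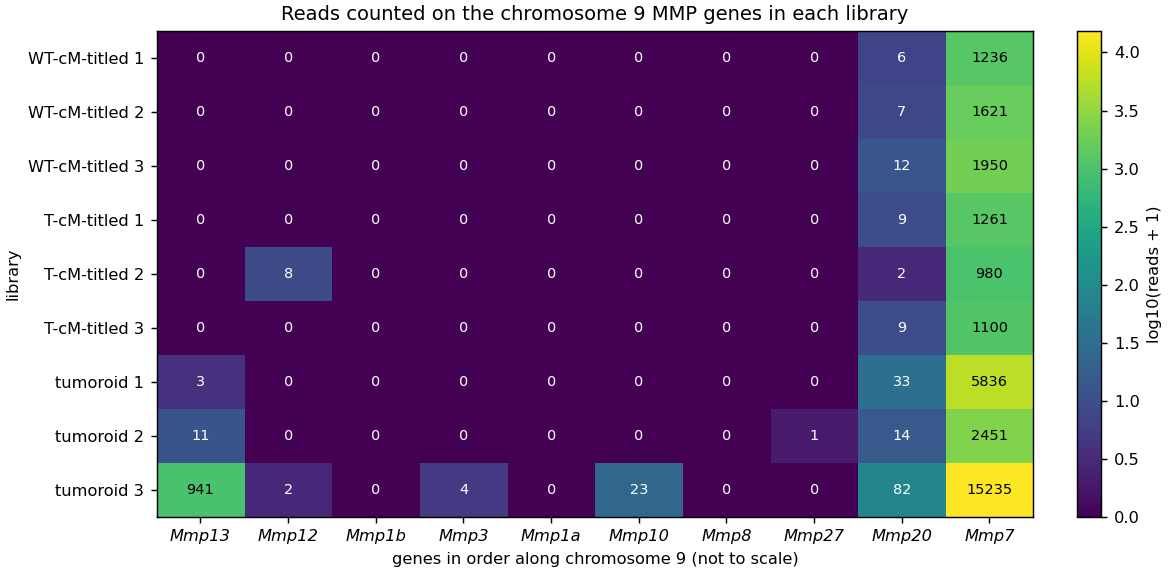
Reads counted on the 10 Mmp genes of the chromosome 9 run (columns, in genomic order) in each of the 9 libraries (rows), with color giving log10 of the reads plus 1. Mmp7 had 980 reads or more in every library, and Mmp13 had 941 reads in tumoroid 3 and at most 11 elsewhere.

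The membrane-type proteases were present in all libraries. Mmp14, which activates pro-MMP2 and cuts pericellular collagen, had 29.6, 19.03 and 24.4 CPM in WT-cM-titled organoids and 26.8, 14.7 and 18.8 CPM in T-cM-titled organoids. Tumoroids had 95.6, 66.3 and 198 CPM, all above every organoid library. The log2 fold change was 2.30 ± 0.40 against WT-cM-titled and 2.57 ± 0.40 against T-cM-titled organoids (SE, n = 3 per group).

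Mmp15, a relative of Mmp14, had 47.4, 51.8 and 51.9 CPM in WT-cM-titled organoids and 46.7, 38.3 and 30.1 CPM in T-cM-titled organoids. Tumoroids had 77.2, 19.97 and 115 CPM. Tumoroid 2 was the lowest of all 9 libraries and tumoroid 3 the highest, so the groups overlapped. The log2 fold change was 0.49 ± 0.48 with WT-cM-titled organoids as control and turned to -0.070 without tumoroid 3. Against T-cM-titled organoids it was 0.88 ± 0.48, with 1.31 without tumoroid 2 and 0.32 without tumoroid 3.

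Timp2 and Timp3 had the largest log2 fold changes among the members with more than 3 control reads. Timp2 had 8, 7 and 9 reads (0.440, 0.426 and 0.398 CPM) in WT-cM-titled organoids and 1, 2 and 4 reads (0.0529, 0.136 and 0.225 CPM) in T-cM-titled organoids. Tumoroids had 157, 193 and 297 CPM, on 3454 to 8653 reads, and the groups did not overlap. The log2 fold change against WT-cM-titled organoids was 8.98 ± 0.36. Against T-cM-titled organoids, with 7 reads in all, the ratio of summed levels was 1627 with a 95% counting interval of 790 to 4048.

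Timp3, the matrix-bound inhibitor, had 8.41, 6.75 and 11.4 CPM in WT-cM-titled organoids and 9.20, 9.30 and 13.9 CPM in T-cM-titled organoids. Tumoroids had 236, 919 and 269 CPM, with the highest level in tumoroid 2. The log2 fold change was 5.74 ± 0.58 against WT-cM-titled and 5.46 ± 0.57 against T-cM-titled organoids. Timp1, a secreted inhibitor, had no read in WT-cM-titled organoids, 1, 0 and 2 reads in T-cM-titled organoids and 64, 37 and 116 reads (2.90, 1.38 and 3.98 CPM) in tumoroids. The tumoroid mean was at least 17.2-fold higher than the floor of WT-cM-titled organoids. The ratio to T-cM-titled organoids was 47.6, with a 95% interval of 16.1 to 233 on 3 summed reads, which covers counting error only and not the spread between samples.

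**Figure D3:**
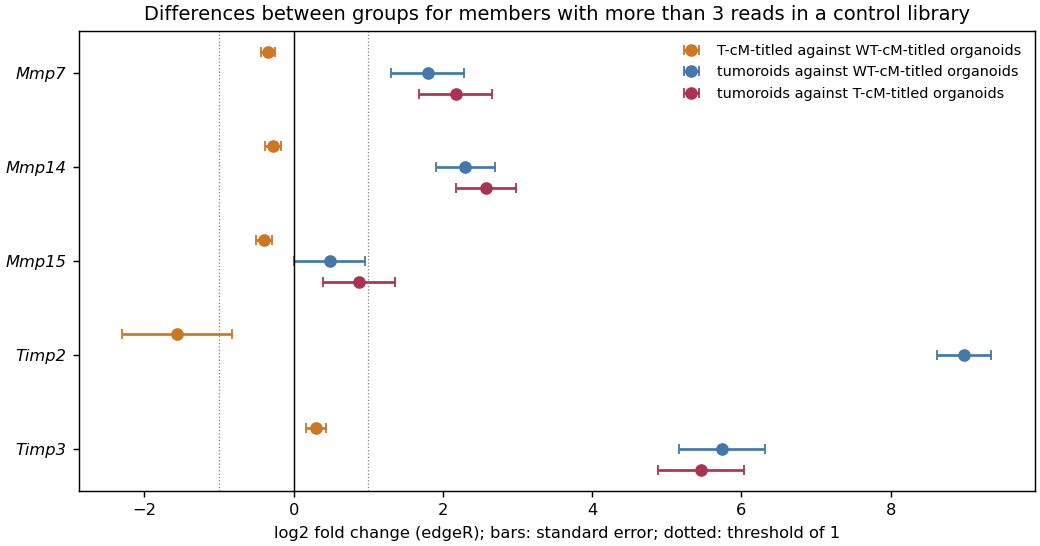
Log2 fold change (points) and its standard error (bars) for 5 members in the 3 comparisons, shown where a control library held more than 3 reads, except Timp2 against T-cM-titled organoids, which had 7 control reads in all. Timp2 and Timp3 lay far to the right in tumoroids, Mmp15 lay at 0.49 and 0.88, and the differences between organoid groups were small for Mmp7, Mmp14, Mmp15 and Timp3.

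Summed over members on the TPM scale, both families were more abundant in tumoroids. The 7 MMPs summed to 180 ± 18.5 TPM in T-cM-titled organoids (SD, n = 3), 228 ± 24.4 TPM in those titled WT-cM and 1120 ± 841 TPM in tumoroids. The 3 TIMPs summed to 3.50 ± 0.874, 2.89 ± 0.594 and 419 ± 188 TPM in the same order. The ratio of MMP to TIMP sums was 64.5, 61.7 and 36.0 in T-cM-titled organoids and 69.1, 113 and 64.2 in WT-cM-titled organoids. In tumoroids it was 3.93, 0.638 and 5.01, below every organoid library. Tumoroid 2 held more TIMP than MMP transcripts, with 390 TPM of MMPs and 612 TPM of TIMPs. Mmp7 made up 83.9%, 83.7% and 84.9% of the MMP sum in the 3 groups.

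**Figure D4:**
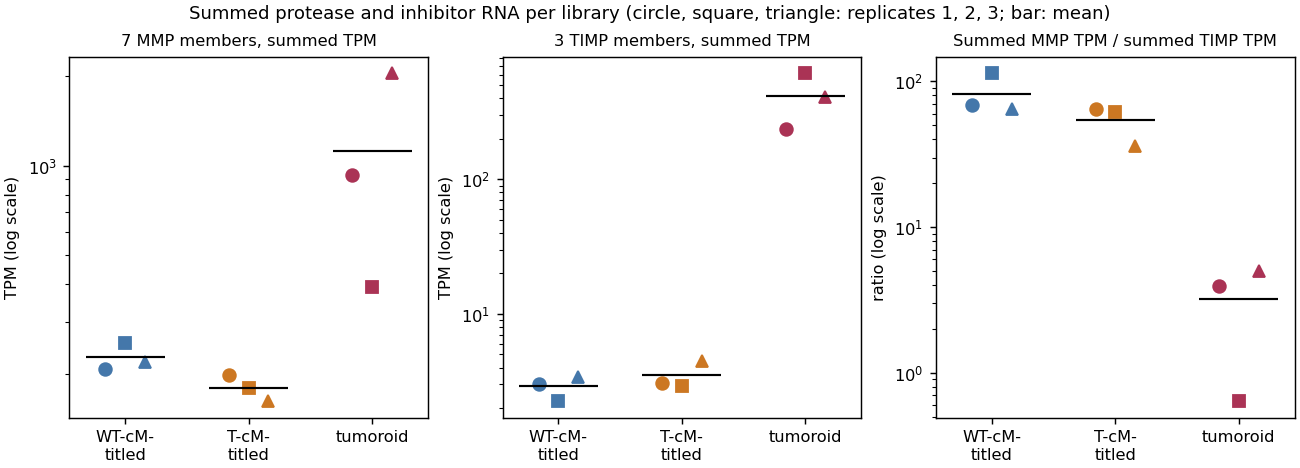
Summed TPM of the 7 MMP members (left), of the 3 TIMP members (middle) and their ratio (right) in each library, on log axes, with points for libraries and bars for group means. The ratio lay between 36.0 and 113 in organoids and between 0.638 and 5.01 in tumoroids.

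By TPM the order of levels changed between organoids and tumoroids. In WT-cM-titled organoids Mmp7 was followed by Mmp15 (22.7 ± 0.612 TPM) and Mmp14 (13.9 ± 3.80 TPM), whose libraries did not overlap, and Timp3 had 2.63 ± 0.604 TPM. In T-cM-titled organoids Mmp15 (17.7 ± 4.51 TPM) and Mmp14 (11.6 ± 3.96 TPM) overlapped. In tumoroids Mmp7 was followed by Timp3 (211 ± 182 TPM) and Timp2 (197 ± 71.5 TPM), then by Mmp14 (98.3 ± 57.8 TPM) and Mmp15 (45.6 ± 31.1 TPM), and the libraries of each gene overlapped those of the next in this order. Tumoroid 3 had the highest level of the 3 for 9 of the 10 members.

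Between the organoid groups no member was called, that is, none had an edgeR adjusted p under 0.05 with a log2 fold change beyond 1 in either direction. Over all 16208 tested genes 1.10% were called. Without the fold threshold 2 members, Mmp7 and Mmp15, were lower in T-cM-titled organoids, and 5.05% of all genes were. That count was 0 with limma voom, with DESeq2, with the newer quasi-likelihood form and without pair 3, where 581, 794, 1048 and 533 of all genes passed in either direction, beside 1634 by edgeR with all pairs. It was 0 as well on TPM, without the replicate block and without pair 2, but there 0, 0 and 1 of all genes passed, so these settings say nothing of the members. Without pair 1 it was 3, Mmp7, Mmp14 and Mmp15, beside 2872 of all genes. Every T-cM-titled library lay below every WT-cM-titled library for 3 members, Mmp7, Mmp15 and Timp2, and for 5.28% of all genes. At an unadjusted p under 0.05 there were 5 members by edgeR and 5 by limma voom, beside 22% and 21.8% of all genes, and 2 by DESeq2, beside 13.3%. The log2 fold change, T-cM-titled minus WT-cM-titled, was -0.35 ± 0.09 for Mmp7, -0.40 ± 0.11 for Mmp15 and -0.28 ± 0.11 for Mmp14 (SE, n = 3 pairs). It was 0.30 ± 0.14 for Timp3. In the 3 pairs of equal replicate number, the T-cM-titled level divided by its partner was 0.982, 0.675 and 0.718 for Mmp7 and 0.987, 0.739 and 0.580 for Mmp15. Pair 1 was close to equal for both genes. The ratios were 0.907, 0.774 and 0.768 for Mmp14, and 1.09, 1.38 and 1.22 for Timp3. Of the 8 members tested, 4 (Mmp7, Mmp14, Mmp15 and Timp2) were lower in all 3 pairs and 1 (Timp3) was higher in all 3, beside 22.3% and 18.9% of all genes. Timp2 had a ratio of summed levels of 0.325 and a 95% counting interval of 0.118 to 0.777 on 7 against 24 reads.

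Tumoroids against WT-cM-titled organoids gave 5 called members, all higher: Mmp7, Mmp14, Timp1, Timp2 and Timp3. Of all tested genes 29.8% were called, and 18.2% were called as higher. The same 5 were called against T-cM-titled organoids, where 31.2% of genes were called and 19.4% as higher. All tumoroids lay above all WT-cM-titled organoids for 5 of the 8 members that passed the filter (28.2% of genes), and above all T-cM-titled organoids for 6 of those 8 (30.1% of genes). Mmp7 was no longer called against WT-cM-titled organoids when replicate 1 of that group was left out, and Mmp13 was called as well when any 1 tumoroid was left out. Both comparisons share the tumoroid libraries. The median log2 fold change of all tested genes was 0.15 and 0.16 in the 2 comparisons. Since the members were chosen with these values known, nothing is read from their count.

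Of the 17 other genes of both families, 5 passed the filter on low values, and Mmp11, Mmp20 and Mmp24 passed it through tumoroids alone, so that their tests are of genes admitted by the group where they are high. Mmp11, stromelysin-3, had 169, 283 and 371 reads in tumoroids (7.66, 10.5 and 12.7 CPM) and at most 2 in any organoid library. Its level in tumoroids was at least 64.4-fold higher than the floor of WT-cM-titled organoids, and it rose against both organoid groups (edgeR adjusted p = 5.78e-05 for WT-cM-titled and 7.21e-05 for T-cM-titled, and 2.0e-06 and 2.9e-06 with no filter on TPM). Mmp20, the neighbour of Mmp7, rose by 1.89 ± 0.68 on the log2 scale over WT-cM-titled organoids (edgeR adjusted p = 0.0495) and 2.07 ± 0.70 against the other organoids (edgeR adjusted p = 0.0352). Without tumoroid 3 these were 1.18 and 1.36 (edgeR adjusted p = 0.178 and 0.126), and neither passed when tumoroid 1 or any control library was left out. Mmp24, a membrane-type enzyme, rose by 2.68 ± 0.66 against WT-cM-titled organoids (edgeR adjusted p = 0.00915), on 3 to 7 control reads, and by 1.82 without tumoroid 3 (edgeR adjusted p = 0.0277). Against T-cM-titled organoids its value was 1.62 ± 0.62 (edgeR adjusted p = 0.0576). Mmp28, epilysin, rose by 1.23 ± 0.36 against T-cM-titled organoids (edgeR adjusted p = 0.019), and its value against WT-cM-titled organoids was 0.87 ± 0.35 (edgeR adjusted p = 0.0739). The first of these was 0.78 without tumoroid 3 (edgeR adjusted p = 0.0647) and 1.07 without T-cM-titled replicate 3 (edgeR adjusted p = 0.0738). None of the 5 passed the test between the organoid groups.

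Genes that activate or restrain MMPs were read as a list of 20, of which 16 were tested. Between organoid groups 3 of the 16 rose in T-cM-titled organoids and none fell at an adjusted p under 0.05, where 5.03% of all genes rose and 5.05% fell, and the list median was -0.01 beside 0. Plaur, the urokinase receptor, had 26.6, 33.6 and 26.3 CPM in T-cM-titled and 16.4, 18.1 and 16.7 CPM in WT-cM-titled organoids. Its log2 fold change was 0.76 ± 0.11 (edgeR adjusted p = 1.48e-05). Furin, the convertase that removes the prodomain of membrane-type MMPs, rose by 0.44 ± 0.09 (edgeR adjusted p = 0.0011) and Lrp1, an endocytic receptor that clears proteases, by 0.35 ± 0.09 (edgeR adjusted p = 0.00803). The count of 3 was 1 with limma voom, and stayed at 3 with DESeq2 and with the newer quasi-likelihood form. Without pair 1 it was 3 and without pair 3 it was 2, beside 2872 and 533 of all genes in either direction. Lrp1 did not pass without pair 3 (0.25, edgeR adjusted p = 0.213). Without replicate pair 2 none of the 16 passed, and Plaur had 0.68 (edgeR adjusted p = 0.222). Without the replicate block none passed either, with 0.77 for Plaur (edgeR adjusted p = 0.603). The value of Plaur thus stayed about as large, and of all 16208 genes 1 and 0 passed at these settings.

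In tumoroids against WT-cM-titled organoids, 3 of the 13 that passed the filter in organoids rose and 4 fell at an adjusted p under 0.05, beside 23.4% and 18.5% of all genes, with a median of 0.02 beside 0.15. The other 3 passed it through tumoroids alone. Plau, urokinase, 1 of those 3, had 7.16, 2.23 and 50.8 CPM in tumoroids and at most 2 reads in any organoid library (edgeR adjusted p = 0.00114). Plat, tissue plasminogen activator, had 19.8, 201 and 81.1 CPM and a log2 fold change of 3.86 ± 0.72 (edgeR adjusted p = 0.00207). Cd44, which can hold Mmp7 and Mmp9 at the cell surface, rose by 2.79 ± 0.74 (edgeR adjusted p = 0.0132, and 0.0567 or 0.0529 without WT-cM-titled replicate 2 or 3). Tfpi2, a protease inhibitor of the matrix, fell by 3.19 on the log2 scale (edgeR adjusted p = 0.000943) and Lrp1 by 1.52 (edgeR adjusted p = 0.000586). The Pcsk genes of the list differed in direction. Pcsk5 fell by 3.28 (edgeR adjusted p = 0.000638) and Pcsk7 had -0.69 ± 0.13 (edgeR adjusted p = 0.00197). Pcsk6 rose by 1.75 ± 0.31 (edgeR adjusted p = 0.00165).

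Of the related ADAM and ADAMTS proteases, 10 of 16 listed genes were tested, and 4 of these passed the filter through tumoroids alone. Of the other 6, 4 rose and none fell against WT-cM-titled organoids, beside 23.4% and 18.5% of all genes, with a median of 0.74 beside 0.15. Over all 10, which include the genes admitted through tumoroids alone, 7 rose. That count was 4 without tumoroid 3 and 3, 3 and 2 without WT-cM-titled replicates 1, 2 and 3. Of all genes 39.6%, 37.9%, 31.5% and 33.6% passed in either direction at these settings, beside 41.9% with all libraries. Adam8 had 21.7, 10.04 and 64.5 CPM in tumoroids and 3.24 to 4.26 CPM in WT-cM-titled organoids (log2 fold change 3.14 ± 0.68, edgeR adjusted p = 0.00466). Between organoid groups it had a log2 fold change of -0.85 ± 0.27 (edgeR adjusted p = 0.045). Its T-cM-titled level divided by its partner was 1.16, 0.335 and 0.331 in pairs 1 to 3. Without pair 2 the value was -0.57 (edgeR adjusted p = 0.704), where 1 of all genes passed. Without pair 3 it was -0.56 (edgeR adjusted p = 0.495), where 533 passed. No gene of the list fell with limma voom, DESeq2 or the newer quasi-likelihood form. With no filter on TPM or without pair 1, 1 gene of the list fell. The sheddases Adam9 and Adam15 rose by 0.73 ± 0.20 (edgeR adjusted p = 0.0153) and 0.89 ± 0.19 (edgeR adjusted p = 0.00438) in tumoroids. Adam9 had 0.56 without tumoroid 3 (edgeR adjusted p = 0.0513) and 0.69 without WT-cM-titled replicate 3 (edgeR adjusted p = 0.0563). Adam17 rose by 0.57 ± 0.20 (edgeR adjusted p = 0.0461) and had 0.29 without tumoroid 3 (edgeR adjusted p = 0.172). It did not pass when any 1 WT-cM-titled library was left out (0.48 to 0.66, edgeR adjusted p = 0.0655 to 0.146).

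Because Mmp7 is a Paneth cell gene in the small intestine, it was set beside 15 Paneth cell genes, of which 14 were tested. Between organoid groups 5 fell and none rose in T-cM-titled organoids, beside 5.05% and 5.03% of all genes, with a list median of -0.25 beside 0. In all 3 pairs 10 of the 14 were lower, beside 22.3% of all genes. The 5 that fell were Mptx2 (-0.82 ± 0.12, edgeR adjusted p = 1.28e-05), Ang4 (-0.49 ± 0.08, edgeR adjusted p = 0.000138), Defa17, Defa3 and Itln1. That count was 5 with limma voom, 4 with DESeq2 and 5 with the newer quasi-likelihood form. Without pair 1 it was 7 and without pair 3 it was 2, beside 2872 and 533 of all genes in either direction. Itln1 (edgeR adjusted p = 0.267), Defa3 (edgeR adjusted p = 0.141) and Defa17 (edgeR adjusted p = 0.0534) did not pass without pair 3. Without pair 2 or without the replicate block none of the 14 passed, beside 1 and 0 of all genes. Mptx2 then had -0.73 and -0.87 (edgeR adjusted p = 0.316 and 0.84), and Defa3 had -1.02 and -0.90, beside -0.89 with all pairs and the block. Lyz1, the Paneth cell lysozyme, had -0.06 ± 0.07 (edgeR adjusted p = 0.678).

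In tumoroids most of these Paneth cell genes were lower, while Mmp7 was higher in tumoroids 1 and 3. In tumoroid 2 Mmp7 lay within the range of the WT-cM-titled libraries. Against WT-cM-titled organoids 9 of 14 fell and none rose, beside 18.5% and 23.4% of all genes, with a list median of -3.18 beside 0.15. Lyz1 had 165, 3.05 and 286 CPM in tumoroids and 1054 CPM or more in WT-cM-titled organoids (edgeR adjusted p = 0.0422). Its log2 fold change was -2.996 ± 1.04. It did not pass without tumoroid 1 (-3.06, edgeR adjusted p = 0.0973) or without any 1 of the WT-cM-titled libraries (-3.10 to -2.86, edgeR adjusted p = 0.0648 to 0.0896), with a value about as large each time. Defa24, an alpha-defensin, had 555, 38.5 and 147 CPM in tumoroids and fell by 3.07 on the log2 scale (edgeR adjusted p = 0.0089). Mptx1, Mptx2, Ang4, Itln1 and Habp2 did not pass the test in tumoroids. Tumoroid 2, which had the lowest Mmp7 level of the tumoroids, also had the lowest summed level of the list, 160 CPM against 1114 and 1813 CPM. Defensin genes are near-identical copies, so reads split between them are uncertain.

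**Figure D5:**
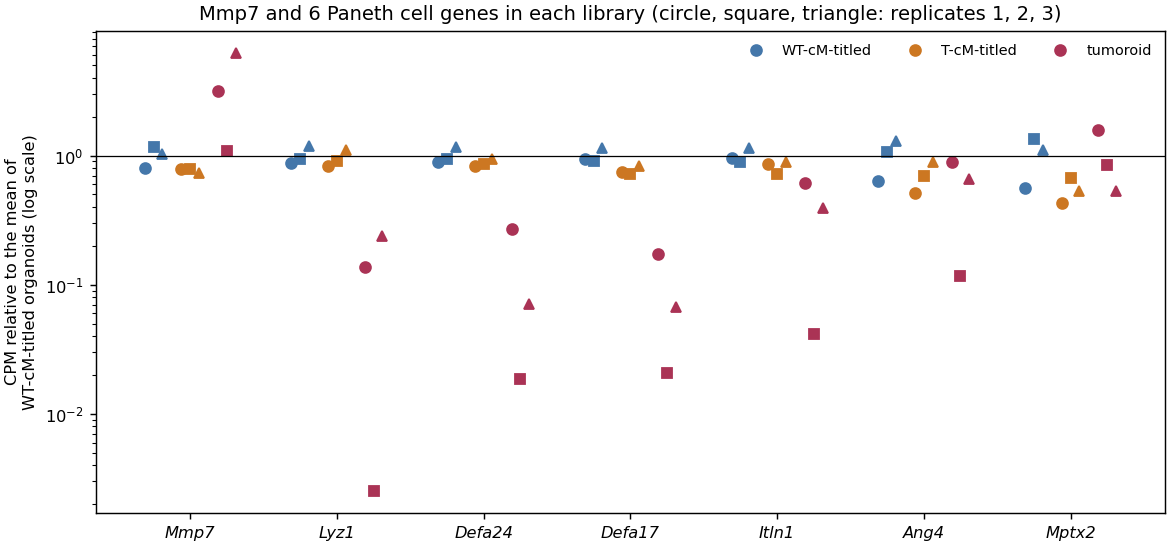
Mmp7 and 6 Paneth cell genes in each library, as CPM divided by the mean of WT-cM-titled organoids on a log axis, with points for libraries and colors for groups. Mmp7 lay at or above 1 in the 3 tumoroids, while Lyz1, Defa24 and Defa17 lay below 1 in the same libraries.

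The summed markers of other cell types were highest in tumoroid 3, as were Mmp13, Mmp10 and Mmp9. The 12 stromal markers summed to 0.814 to 1.80 CPM in organoids and to 6.62, 2.71 and 49.6 CPM in tumoroids, with 46.0 CPM of the last from Acta2, and 6 of them had at most 3 reads in each tumoroid. Col1a1 had at most 12 reads in a tumoroid. The 10 immune markers summed to 5.66 to 9.24 CPM in organoids and to 56.0, 47.0 and 221 CPM in tumoroids, of which Cd14 gave 194 CPM in tumoroid 3. Cd68, a myeloid marker, had 4.58, 5.58 and 20.5 CPM in tumoroids and rose against WT-cM-titled organoids (edgeR adjusted p = 0.00153). Csf1r, the receptor of a macrophage growth factor, had its highest level in tumoroid 2 (2.72, 20.4 and 4.50 CPM) and rose as well (edgeR adjusted p = 0.0361). Set against T-cM-titled organoids it had a log2 fold change of 2.31 ± 0.97 (edgeR adjusted p = 0.0787), and T-cM-titled replicate 3, at 3.49 CPM, lay above tumoroid 1. Itgam, another myeloid marker, did not pass the filter and had 0.227 to 0.409 CPM in tumoroids and 0.660 to 1.46 CPM in the WT-cM-titled libraries. Lyz2, also expressed by myeloid cells, had 1, 0 and 3 reads in tumoroids and a log2 value of -2.53 ± 1.17 with WT-cM-titled organoids as control (edgeR adjusted p = 0.11). Ptprc, the pan-leukocyte marker, had 4, 19 and 6 reads in tumoroids and Adgre1, a macrophage marker, had none. The 6 endothelial markers summed to 1.09 to 1.65 CPM in organoids and to 3.17, 1.41 and 6.05 CPM in tumoroids. Their part in the levels of the members was not tested.

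Some members share bases with other genes, and the strand setting of the counting is not given in the sources used here. Timp3 lies within Syn3 on the opposite strand, which had 6 to 20 reads in organoids and 49, 72 and 82 in tumoroids. Timp1 lies within Syn1, which had at most 4 reads in any library, and Timp2 shares a stretch on its own strand with Cep295nl, which had 3, 14 and 9 reads in tumoroids and none in organoids. Mmp11 overlaps Chchd10 on the opposite strand, which had 1836 to 5216 reads per library, and Mmp24 overlaps BC029722, which had 358 to 907.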

How the data were processed

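RNA was sequenced as stranded polyA libraries from 9 samples. Per the paper's methods and the labels, the authors aligned reads to mm10 with STAR. They deposited raw read counts for each gene and TPM values, which the authors scaled by gene length; the counting tool and its strand setting are not given in the sources used here. Analyses used R 4.3.3, edgeR 4.0.16, limma 3.58.1, DESeq2 1.42.0 and Python 3.11.15.

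Groups and replicate numbers came from the titles, which conflict with the treatment field of the organoids. The 16208 genes that reached a TPM of 1 in any library were fitted on the counts with TMM factors and the quasi-likelihood method in its form before edgeR 4. Organoid groups were compared over 6 libraries with replicate number as a block, tumoroids over 9 libraries without it. Same-numbered organoid libraries deviated together (r of 0.546, 0.338 and 0.547), so the numbers pair them. Genes were called at a Benjamini-Hochberg adjusted p under 0.05 with an absolute log2 fold change above 1. The SE is the log2 fold change divided by the root of F. CPM uses normalised library sizes. The fit was tested on simulated data, where 200 of 200 planted changes were recovered between organoids (1 false call) and 163 of 200 between tumoroids and WT-cM-titled organoids (12 false calls). Samples labelled as from separate mice were taken as replicates. No pair of libraries held identical values. The 10 members and all lists were chosen with earlier results of these data known; all members and the tested list genes could be named, and the alternatives for the lists were added after seeing the data. Positions came from release 21 of the Gencode annotation on mm10. The values of 1 listed gene are not reported here.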

Additional observations from a re-analysis of the deposited data

How the results depend on the processing

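Among the alternatives, 253 of 256 log2 fold changes of 6 members (Mmp7, Mmp14, Mmp15, Timp1, Timp2 and Timp3) kept their direction and their call. Of the counts of called members 47 of 48 stayed within 1.5 times, and of the counts of all called genes 39 did and 9 did not. Between organoid groups 13 of 14 alternatives kept a count of 0 members. On TPM, without the replicate block and without pair 2, at most 1 of all genes was called, so an unchanged call there says nothing of the members. The exceptions were tumoroid values of Mmp15 and Mmp7. With WT-cM-titled organoids as control, Mmp15 had -0.070 without tumoroid 3 (range when a library was left out, -0.070 to 0.92). With T-cM-titled organoids as control, Mmp15 had 1.31 without tumoroid 2 and was called there. Mmp7 had 1.65 over WT-cM-titled organoids without replicate 1 of that group, beside 1.80 with all libraries, and was not called there. The cause was not tested. Mmp13, with no read in organoids and so no fold of its own here, was not called in either tumoroid comparison but was in both with no filter on TPM, on log2(TPM + 0.1), with a replicate block and without any 1 tumoroid.

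Genes called between organoid groups, 179 in all, numbered 1634 with no fold threshold (2 members), 104 with limma voom and 93 with DESeq2. On TPM with a pseudocount of 1 or 0.1 the count was 0. Without the replicate block it was 0 as well, and with it 179. Leaving out a pair gave 1 to 385 genes and no called member (0 to 0). Leaving out a library gave 4012 to 4857 genes and 4 to 6 members for tumoroids against WT-cM-titled organoids, and 4219 to 5149 genes and 5 to 7 members against T-cM-titled organoids. With a replicate block these were 4975 genes and 6 members, and 5206 genes and 6 members, Mmp13 being the added one in both; no label ties a tumoroid's number to an organoid library. On CPM the MMP to TIMP ratio was 11.8 for organoids titled T-cM and 17.9 for those titled WT-cM, and 0.931 for tumoroids (1.11, 0.1596 and 1.52 by library), beside 54.1, 82.2 and 3.19 on TPM. On log2(TPM + 1) the median over all genes for tumoroids with WT-cM-titled organoids as control was 0.52, beside 0.15.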

Other observations

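Mmp20, best known for tooth enamel, lies next to Mmp7 on chromosome 9. Its share of the reads on both genes was 0.204% to 0.812% in organoid libraries and 0.535% to 0.568% in tumoroids. In tumoroid 3 it had 82 reads beside 15235 for Mmp7, a share of 0.535% with a 95% Wilson interval of 0.432% to 0.664%, which covers counting error only.

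Across the 9 libraries the genes whose log2 CPM was most like that of Mmp7, among 12630 genes, were Bace2 (Pearson r = 0.987), Pak3 (0.982) and Ptprz1 (0.978). For Timp3 they were H19 (0.997), Bicc1 (0.994) and Nupr1 (0.993). H19 had 267, 1750 and 299 reads in tumoroids and at most 2 in any organoid library. The points fall into organoids and tumoroids, so these values describe these libraries and carry no test.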
